A study of Mus musculus with 6 samples.

Results

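The mitochondrial solute carriers are the proteins that move metabolites, nucleotides, cofactors and ions across the inner membrane of mitochondria. Their genes were examined in ileal epithelial cells of mice, as all rows whose Ensembl identifier carries a numbered Slc25a symbol, together with Ucp2, an uncoupling protein of the same family, and Mpc1 and Mpc2, the unrelated subunits of the mitochondrial pyruvate carrier. The rule gave 50 of the 22274 genes listed, and it used no measured value. RNA sequencing covered 3 control libraries and 3 Ogt knockout libraries. Knockout mice carried floxed alleles of Ogt and the driver Olfm4-CreER, in which a stem cell gene of the crypts drives a recombinase that tamoxifen switches on. Controls are labelled LoxP with no driver given, while their titles read Olfm4Ctrl, which holds the driver's gene name but states no genotype. Ogt encodes O-GlcNAc transferase, which attaches a single sugar to nuclear and cytoplasmic proteins. Per the labels, mice were 2 months old, tamoxifen was given on 3 days, and tissue was collected on day 10. One treatment text stands with every sample. It does not say whether controls carried the driver or received tamoxifen, so an effect of either cannot be told apart from loss of Ogt. No label names the animals behind the libraries, and the p-values therefore cover only the spread between samples, which may be technical.

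Carriers of the Slc25 family share a fold built from repeats and are encoded in the nucleus, made in the cytosol and inserted into the inner membrane by a dedicated translocase, the TIM22 complex. Most act as exchangers. The ADP/ATP and phosphate carriers supply ATP synthesis, the citrate, malate, oxoglutarate and pyruvate carriers link glycolysis and fat synthesis to the citric acid cycle, and the aspartate/glutamate carriers bring reducing equivalents in by the malate-aspartate shuttle. Small intestinal epithelium is known for its use of glutamine and for making ornithine and citrulline in mitochondria, which calls on the glutamate and ornithine carriers.

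Library totals ranged from 14389429 to 18076479 estimated counts. Ogt itself stood at 140, 127 and 128 CPM (counts scaled to library size with TMM factors) in controls 1 to 3 and at 48.5, 43.0 and 36.0 CPM in knockouts 1 to 3, a log2 fold change of -1.63 ± 0.13 (± SE here and below; edgeR quasi-likelihood test, adjusted p = 0.00121). The labels used here do not say which exons are floxed, and the counts cover the whole gene. The 7 epithelial markers summed to between 7590 and 10343 FPKM (fragments scaled to transcript length and library size) in control and between 8219 and 9295 FPKM in knockout libraries, and none of the 7 passed the test. Control 1 stood apart from the other controls, with a mean chi-square per gene of 59.6 and 78.1 against them, while controls 2 and 3 differed by 33.8 and knockout pairs by 19.5 to 27.4. Control 2 was low in Paneth cell genes, with 6 markers summing to 260 FPKM against 2723 and 2600 FPKM in the other controls. Markers of B lymphocytes were low in knockout 1, where Ms4a1 stood at 0.57 FPKM against 9.30 to 12.6 FPKM in the other libraries.

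Most carriers did not differ detectably between the groups, and those that did mainly fell. Of the 50 genes, 43 had enough counts to be tested, of which 1 rose, 7 fell and 35 did not pass the test (edgeR, with a Benjamini-Hochberg adjusted p under 0.05 across the 14005 genes tested). The gene that rose was Slc25a1, the citrate carrier. Those that fell were Slc25a12, Slc25a17, Slc25a36, Slc25a39, Slc25a42, Slc25a45 and Mpc2. Across all tested genes 9.33% were called higher, 9.37% lower and 18.7% either way, and among the carriers the shares were 2.33% higher and 16.3% lower. The carriers' median log2 fold change was -0.12 and that of all tested genes was -0.05. Library size alone as the scaling moved the median of all genes up by 0.14 and turned the carriers' median to 0.01, and the carriers' median minus that of all genes was -0.07 with TMM factors and -0.08 with library size alone. With each library left out the carriers' median ran from -0.16 (without knockout 2) to -0.07 (without control 2 or control 1), and its difference from all genes from -0.11 (without knockout 2) to -0.04 (without knockout 3). With no count filter that difference was -0.02. With library size alone 5 carriers were called higher and 7 lower. Without knockout 3 the carriers that fell numbered 4.

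**Figure D1:**
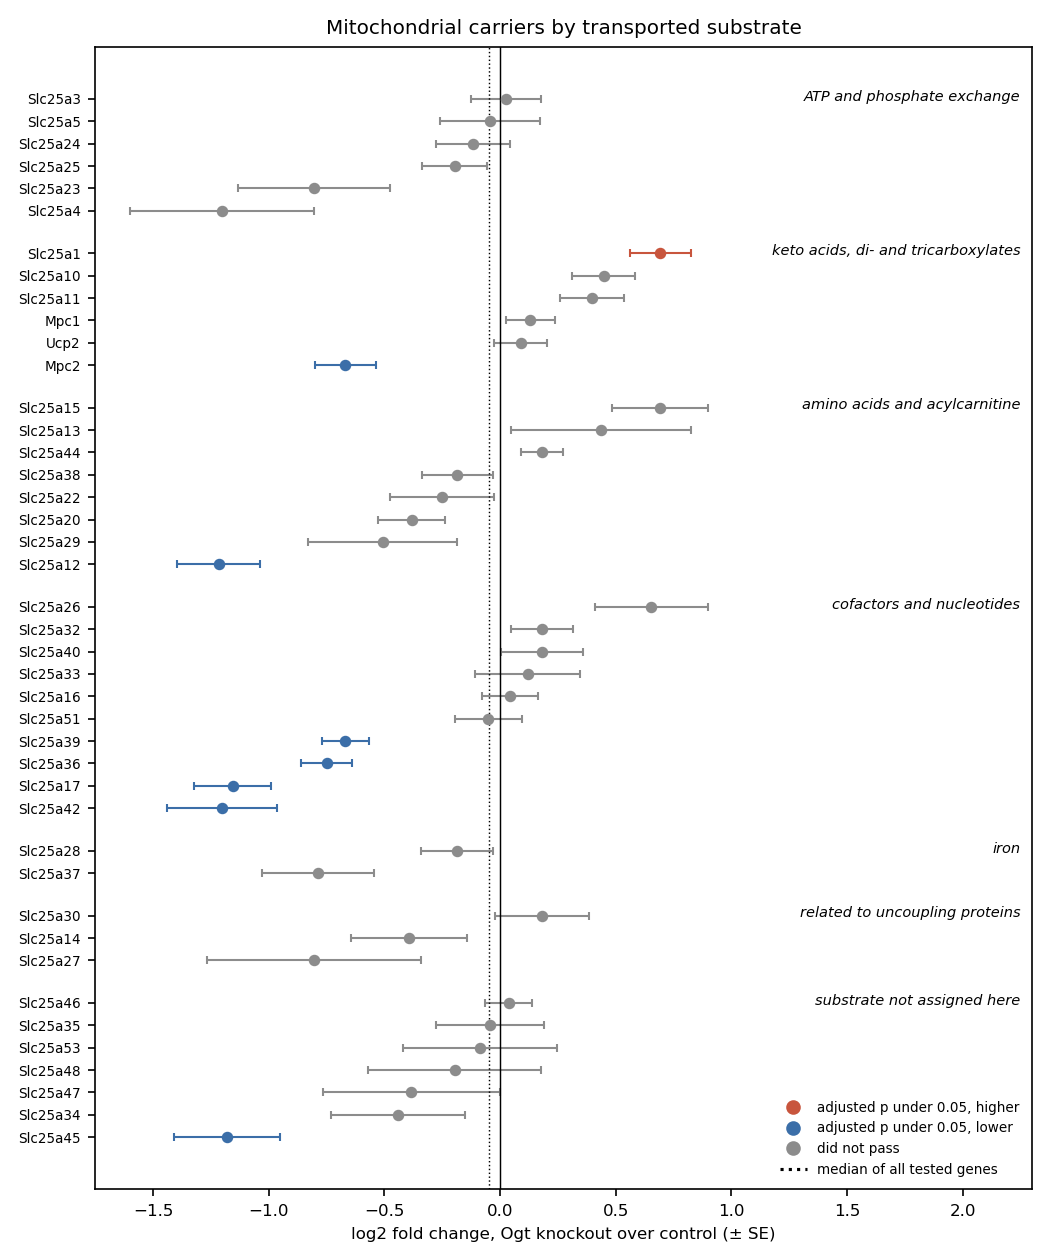
The log2 fold change of the tested carriers (x axis, Ogt knockout over control, bars ± SE), grouped by what they transport, with genes past the adjusted p threshold in colour and the median of all tested genes as a dotted line. Slc25a1 is the only coloured point to the right of 0, and 4 of the 7 to the left stand in the group of cofactor and nucleotide carriers.

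Some cell type markers differed between the groups as well, where 9.33% of all tested genes were called higher and 9.37% lower. Of 8 enterocyte markers 3 fell (Alpi, Fabp2 and Slc10a2), and their sum was 19910 to 23738 FPKM in control and 16594 to 20342 FPKM in knockout libraries. All 5 tested tuft cell markers fell, from a sum of 25.4 to 28.9 FPKM in control to 4.91 to 5.40 FPKM in knockout libraries, and no stem or proliferation marker of 8 passed. Of 7 goblet cell markers 2 fell (Clca1 and Zg16), with sums of 4135 to 9567 and 2991 to 4699 FPKM, and of 6 enteroendocrine markers Sct rose, with sums of 60.3 to 87.2 and 116 to 136 FPKM. Of 5 fibroblast markers Col1a1 and Col1a2 rose, with sums of 86.1 to 118 FPKM in control and 116 to 159 FPKM in knockout libraries. None of the markers of T lymphocytes (7), B and plasma cells (5), myeloid cells (5) or endothelium (4) passed. The part of these cells in the carriers' differences was not tested. In bulk libraries, fewer cells of a type and less RNA per cell cannot be told apart.

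Levels of the carriers spanned several orders of magnitude. By mean control FPKM, which corrects for transcript length, 6 carriers stood at 100 FPKM or more, 17 from 10 to under 100, 16 from 1 to under 10, and 11 under 1 FPKM. Slc25a5, the main ADP/ATP carrier of dividing and epithelial cells, was the most abundant at 1040 ± 273 FPKM in control and 1110 ± 76.5 FPKM in knockout libraries (mean ± SD, n = 3). Slc25a3, the phosphate carrier, followed at 433 ± 60.7 FPKM. Slc25a24 at 191 ± 34.0, Ucp2 at 168 ± 11.8, Mpc1 at 120 ± 8.72 and Slc25a22 at 117 ± 29.1 FPKM came next, and neighbours in this order from Slc25a24 on lay within about their own spread, except between Ucp2 and Mpc1. The 50 genes together summed to 2388, 3054 and 2886 FPKM in controls 1 to 3 and to 2936, 3218 and 2912 FPKM in knockouts 1 to 3. In TMM-scaled CPM the sums were 4692, 5794 and 5511 in controls and 5317, 5536 and 4885 in knockouts. FPKM carries no TMM factors, and knockout values of genes at large stand higher on that scale. Slc25a5 alone made up 30.6% of this sum in control 1, between 35.7% and 40.6% in the other 5 libraries. Its CPM was 924, 1631 and 1516 in controls 1 to 3 and 1356, 1404 and 1186 in knockouts 1 to 3, so the groups overlap. None of the 6 most abundant carriers passed the test. The carriers that did pass comprised 6 of the 17 at 10 to under 100 FPKM and 2 of the 16 at 1 to under 10 FPKM.

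**Figure D2:**
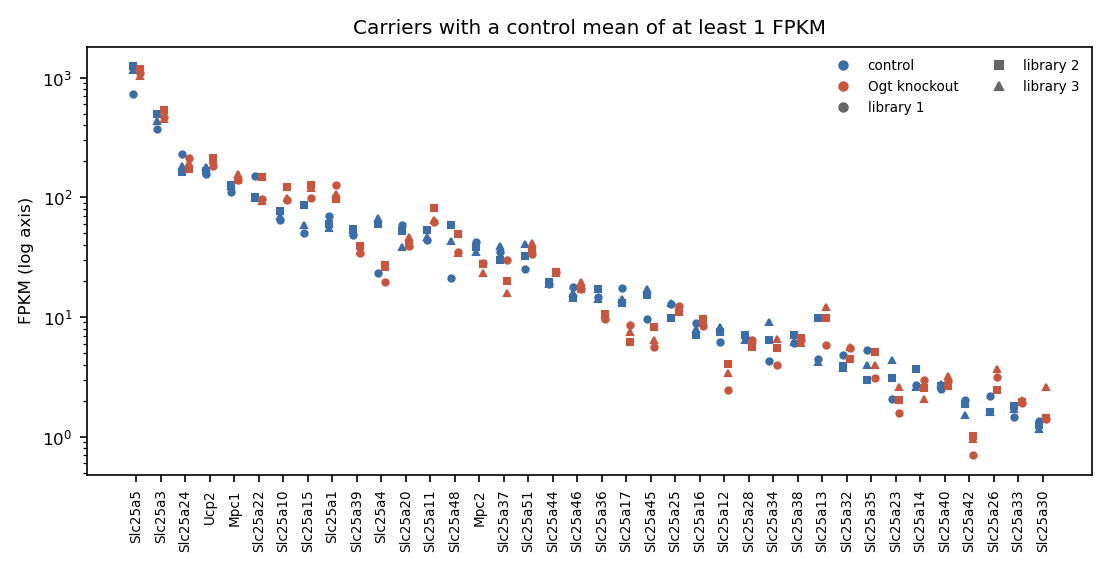
FPKM (y axis, log scale) of carriers with a control mean of at least 1 FPKM, 1 point per library, ordered by control mean. Slc25a5 heads the order in every library, and control 1 is its lowest library at 729 FPKM.

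Of the 7 carriers without enough counts, Slc25a41 and Slc25a54 had 0 counts in all libraries, where 3 counts would be 0.159 to 0.207 CPM. Slc25a31, an ADP/ATP carrier known from testis, had 4 control and 2 knockout counts, and Slc25a2, Slc25a18 and Slc25a21 had at most 4 counts in a group. Slc25a43 had 20 control and 28 knockout counts. At this depth no difference in these genes was detectable.

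Carriers of ATP and phosphate did not pass the test. Slc25a5 (-0.05 ± 0.22 on the log2 scale), Slc25a3 (0.03 ± 0.15) and the calcium-regulated ATP-magnesium/phosphate carrier Slc25a24 (-0.12 ± 0.16) had log2 differences smaller than their SE. Slc25a4, the ADP/ATP carrier of heart and muscle, stood at 46.2, 123 and 138 CPM in controls 1 to 3 and at 37.5, 49.5 and 46.6 CPM in knockouts 1 to 3. Control 1 lay among the knockout libraries, and the log2 difference of -1.20 ± 0.40 did not pass (adjusted p = 0.0873), whereas without control 1 it was -1.50 with an adjusted p of 0.00136, and DESeq2 called it lower with all libraries (adjusted p = 0.00367). Control 1 was also the lowest control in smooth muscle genes, with Acta2 at 90.1 FPKM against 174 and 195 FPKM in the other controls and 77.9, 140 and 157 FPKM in the knockouts. Of the 6 muscle markers only Acta1, a gene of striated muscle, passed the test, and it was higher (10.4, 20.4 and 38.6 FPKM in control, 116, 402 and 415 FPKM in knockout libraries). The other 5, Des (-0.93), Ckm (-0.88), Myh11 (-0.64), Tagln (-0.62) and Acta2 (-0.45), had log2 differences of the same sign as Slc25a4 without passing. All 6 summed to 286 to 605 FPKM in control and 360 to 829 FPKM in knockout libraries, and the 5 without Acta1 to 276, 576 and 567 FPKM in controls 1 to 3 and 244, 364 and 414 FPKM in knockouts 1 to 3. The part of muscle RNA in the values of Slc25a4 was not tested. Slc25a23 (-0.80 ± 0.33) and Slc25a25 (-0.20 ± 0.14) did not pass either, and the counts of Slc25a25 were not whole numbers in any library, a mark of reads shared with similar or overlapping genes.

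The citrate carrier rose, and of the pyruvate carrier's subunits Mpc2 fell while Mpc1 did not pass the test. Slc25a1, which exports citrate to the cytosol where it serves fat and sterol synthesis, stood at 116, 106 and 96.2 CPM in controls 1 to 3 and at 197, 154 and 162 CPM in knockouts 1 to 3. Every knockout library was above every control, and the rise of 0.69 ± 0.13 (adjusted p = 0.0112) was called whichever single library was left out. Mpc2, a subunit of the pyruvate carrier, stood at 44.0, 42.1 and 37.7 CPM in control and at 28.7, 27.2 and 22.1 CPM in knockout libraries. The groups did not overlap and the log2 fold change was -0.67 ± 0.13 (adjusted p = 0.0138), with an adjusted p of 0.0525 without knockout 3. Mpc1, its partner subunit, did not pass the test, with a mean of 121 ± 11.3 CPM in controls and 132 ± 4.98 CPM in knockouts (0.13 ± 0.11).

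Carriers of other di- and keto acids stood higher in knockout libraries without passing the test. Slc25a10, which exchanges malate or succinate for phosphate, went from 134, 164 and 149 CPM in control to 190, 236 and 182 CPM in knockout libraries, with no overlap (0.45 ± 0.14, adjusted p = 0.0545). Slc25a11, the oxoglutarate/malate carrier of the malate-aspartate shuttle, stood at 75.5, 95.3 and 82.4 CPM against 105, 130 and 98.8 CPM, again without overlap (0.40 ± 0.14, adjusted p = 0.0830). Either gene was called higher by DESeq2, with library size alone and by limma on log2(FPKM + 0.1), where adjusted p-values ran from 0.0139 to 0.0442. Slc25a11 overlaps Rnf167 on the opposite strand, and the library kit does not mark strand. Ucp2, known to export metabolites of the citric acid cycle, stood at 302, 333 and 354 CPM in controls and 338, 380 and 335 CPM in knockouts, which overlap (0.09 ± 0.11).

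Among the 8 tested carriers of amino acids and acylcarnitine only Slc25a12 passed the test, and it fell. It encodes an aspartate/glutamate carrier of the malate-aspartate shuttle and stood at 18.7, 22.9 and 26.7 CPM in controls 1 to 3 and at 8.43, 11.2 and 9.68 CPM in knockouts 1 to 3. The highest knockout value was below the lowest control value, and the log2 fold change was the largest decrease among the carriers called (-1.22 ± 0.18, adjusted p = 0.00486), called without each library in turn. Its close relative Slc25a13, the form known from liver, stood at 13.9, 32.1 and 13.9 CPM in control and at 18, 28.5 and 34.4 CPM in knockout libraries, which overlap (0.44 ± 0.39). Slc25a15, the ornithine carrier of the urea cycle, stood at 175, 311 and 214 CPM in control and at 336, 414 and 380 CPM in knockout libraries. All knockout values were above all control values, yet the difference of 0.69 ± 0.21 did not pass (adjusted p = 0.0545), and it passed without control 2, its highest control (adjusted p = 0.0123). It was also called higher by DESeq2 (adjusted p = 0.00661), with DESeq2 size factors (0.0463), with library size alone (0.0255) and by limma on log2(FPKM + 0.1) (0.0265). Slc25a20, which imports acylcarnitines for fatty acid oxidation, fell short as well at -0.38 ± 0.15 (adjusted p = 0.106, or 0.0471 without control 3). The glutamate carrier Slc25a22 (-0.25 ± 0.23), the branched-chain amino acid carrier Slc25a44 (0.18 ± 0.09), the glycine carrier Slc25a38 (-0.19 ± 0.15) and the basic amino acid carrier Slc25a29 (-0.51 ± 0.32) did not pass. Slc25a44 stood at 67.3, 73.2 and 71.1 CPM in control and 83.3, 80.4 and 76.4 CPM in knockout libraries, without overlap. With library size alone and by limma on log2(FPKM + 0.1) or log2(FPKM + 1) it was called higher. Slc25a22 stood at 389, 266 and 257 CPM in control and 239, 328 and 199 CPM in knockout libraries, and these overlap.

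Carriers of cofactors and nucleotides, the largest group with 11 tested, held most of the decreases: 4 fell and none rose, or 3 fell without knockout 3. The share lower was 36.4%, where 9.37% of all tested genes were called lower and 9.33% higher. As a group they did not shift down, with a median log2 fold change of 0.04, 6 positive and 5 negative. Slc25a39, a carrier of glutathione into mitochondria, stood at 81.8, 95.3 and 92.9 CPM in control and at 56.3, 60.0 and 53.4 CPM in knockout libraries. The groups were well apart, with a log2 fold change of -0.67 ± 0.10 (adjusted p = 0.00550). Slc25a36, a carrier of pyrimidine nucleotides, stood at 62.8, 78.1 and 67.3 CPM against 39.7, 42.2 and 41.9 CPM. Its knockout values lay within a narrow range below all controls (-0.75 ± 0.11, adjusted p = 0.00470). Slc25a17, which sits in the peroxisomal membrane rather than in mitochondria and carries coenzyme A and other adenine-containing cofactors, stood at 30.8, 24.0 and 25.8 CPM against 14.2, 10.2 and 11.8 CPM. All knockouts were below all controls (-1.16 ± 0.17, adjusted p = 0.00470). Slc25a42, a mitochondrial coenzyme A carrier, stood at 6.57, 6.37 and 5.18 CPM against 2.14, 3.0 and 2.70 CPM. This low-level gene had 301 control and 136 knockout counts, and the fall of -1.20 ± 0.24 (adjusted p = 0.0134) was not called without knockout 3 (adjusted p = 0.0555).

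**Figure D3:**
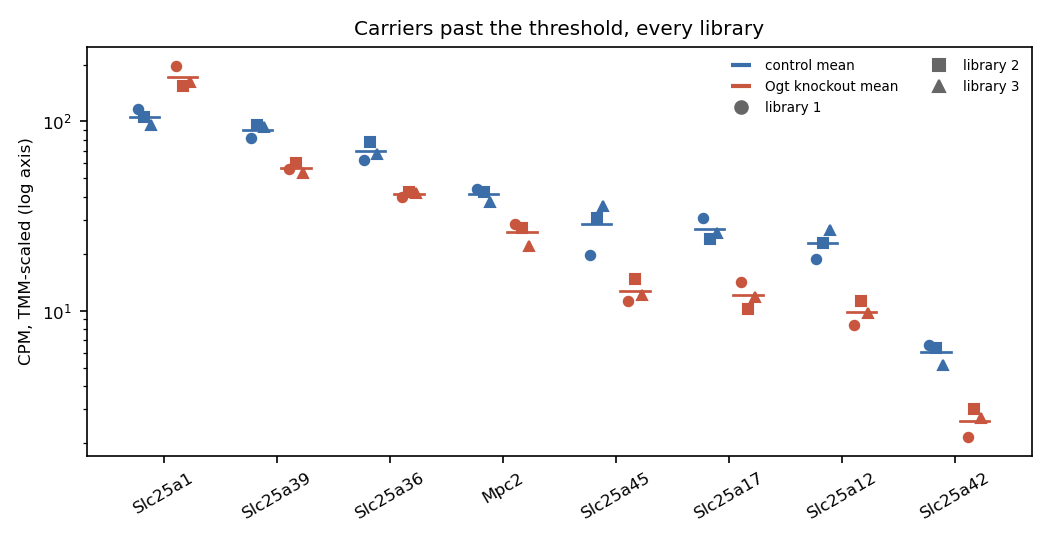
CPM (y axis, log scale, TMM-scaled) of the 8 carriers past the threshold in each of 6 libraries, with a bar at each group mean. For every gene the control and knockout points do not overlap, and Slc25a1 is the only gene whose knockout points are the higher ones.

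The other cofactor carriers did not pass. Slc25a26, which imports S-adenosylmethionine, stood at 4.32, 3.27 and 3.30 CPM in control and 6.15, 4.5 and 6.51 CPM in knockout libraries, which do not overlap (0.65 ± 0.24, adjusted p = 0.0999). The NAD carrier Slc25a51 (-0.05 ± 0.15), the folate carrier Slc25a32 (0.18 ± 0.13), Slc25a16 (0.04 ± 0.12), Slc25a33 (0.12 ± 0.23) and Slc25a40 (0.18 ± 0.18) overlapped between groups. Among the 43 tested carriers 18 had groups without overlap, as did 39.8% of all tested genes.

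Of the mitoferrins, which bring iron to haem and iron-sulfur cluster synthesis, Slc25a37 stood at 138, 123 and 158 CPM in control and at 112, 74.0 and 57.0 CPM in knockout libraries. Knockout values were all below control values but spread widely, and the difference of -0.79 ± 0.24 did not pass (adjusted p = 0.0612, or 0.0114 without knockout 1). DESeq2 called it lower (adjusted p = 0.0104), and so did edgeR on genes of at least 1 CPM in 3 libraries (0.0490). Its counts were not whole numbers in any library. A second row deposited under the same symbol belongs by its identifier to Gm16867, was not counted as a carrier and stood at 26.7 ± 16.8 and 17.6 ± 4.02 CPM. The other mitoferrin, Slc25a28, stood at 10.2 ± 0.447 and 9.02 ± 0.834 CPM (-0.18 ± 0.16).

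Relatives of the uncoupling proteins, Slc25a14 (-0.39 ± 0.25), Slc25a27 (-0.81 ± 0.46) and Slc25a30 (0.18 ± 0.20), did not pass. Slc25a14, the most abundant of these, stood at 4.44, 6.37 and 4.59 CPM in controls and 4.63, 3.83 and 3.28 CPM in knockouts. Among 7 tested carriers grouped here without a substrate, Slc25a45 fell from 19.6, 30.8 and 35.8 CPM in control to 11.2, 14.6 and 12.1 CPM in knockout libraries. The groups did not overlap, with control 1 nearest to the knockouts, and the log2 fold change was -1.18 ± 0.23 (adjusted p = 0.0127). Leaving out control 3 ended its call at an adjusted p of 0.0507, and leaving out knockout 3 at 0.0602. Slc25a48, the most abundant of this group, stood at 72.5, 208 and 155 CPM in controls and 117, 157 and 106 CPM in knockouts, which overlap. Slc25a46, an outer membrane protein of mitochondrial dynamics, stood at 0.04 ± 0.10, and Slc25a34, Slc25a35, Slc25a47 and Slc25a53 lay between -0.44 and -0.04. Counts of Slc25a35 and Slc25a46 were not whole in any library, and Slc25a35 overlaps Rangrf on the opposite strand.

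Closely related carriers were then set against each other as the log2 ratio of their CPM within a library, which no library scaling can change. The 12 pairs were chosen after the values had been seen. Which gene of a pair is placed first sets the sign of its difference, so a direction shared between pairs is not a result. In 7 pairs the control and knockout ratios did not overlap. Slc25a12, Slc25a36, Slc25a39, Slc25a42 and Mpc2, already called lower as single genes, stand first in such pairs. Of single tested genes 39.8% had groups without overlap, and no share was computed for pairs picked without regard to their values. In each of the 7 pairs the exact permutation test (two-sided) gave p = 0.10, the smallest value 3 against 3 libraries allow. After Benjamini-Hochberg adjustment over the 12 pairs it was 0.171, so no pair could pass. The aspartate/glutamate carriers had the largest difference: the FPKM of Slc25a12 was 1.41, 0.760 and 1.96 times that of Slc25a13 in controls 1 to 3 and 0.417, 0.413 and 0.278 times in knockouts 1 to 3. The log2 ratio of their CPM fell by 1.72, and control 2 was the control nearest to the knockouts. Slc25a42 against Slc25a16 shifted by -1.26, Slc25a4 against Slc25a5 by -1.06, Slc25a36 against Slc25a33 by -0.87, Slc25a39 against Slc25a40 by -0.85, Mpc2 against Mpc1 by -0.81 and Slc25a37 against Slc25a28 by -0.65. Per length, Slc25a39 stood 19.4 to 20.6 times above Slc25a40 in control and 11.1 to 14.6 times in knockout libraries. The ATP-magnesium/phosphate carriers (3 pairs), Slc25a14 with Slc25a30, and Slc25a34 with Slc25a35 overlapped between the groups, with exact permutation p from 0.20 to 0.60.

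**Figure D4:**
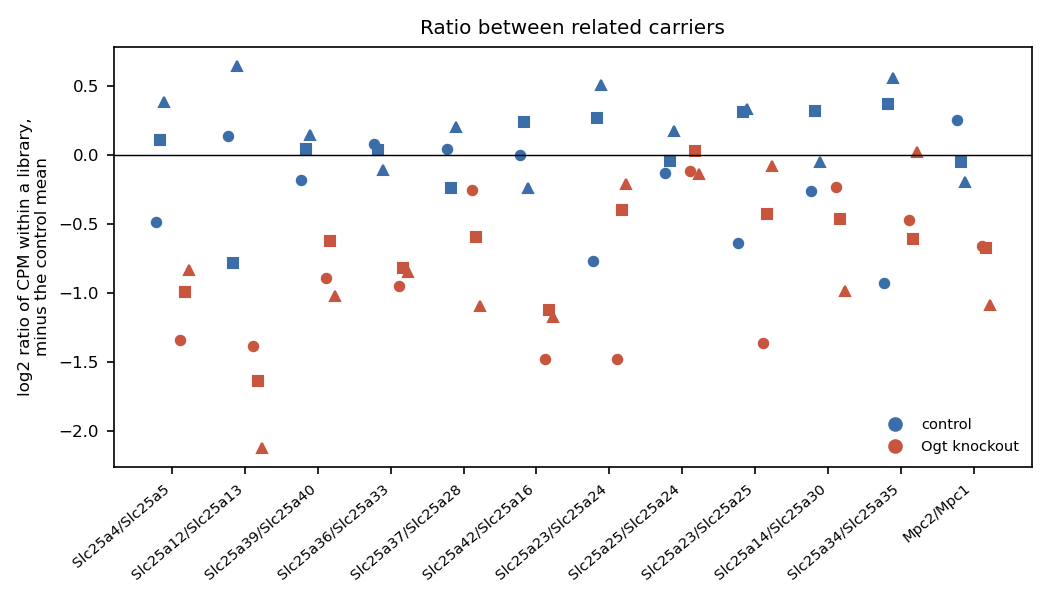
The log2 ratio of CPM between 2 related carriers in each library, minus the mean of the control ratios (y axis), for 12 pairs, with circles, squares and triangles for libraries 1, 2 and 3. Knockout points lie below all control points in 7 pairs, a direction that depends on which gene of a pair is placed first. The Slc25a12 to Slc25a13 ratio has the lowest knockout point.

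Enzymes and proteins that work with the carriers were taken from 10 lists of 130 genes, of which 125 were tested, 14 rose and 14 fell. The share called, 22.4%, was near the 18.7% of all tested genes. In the list of pyruvate and citrate enzymes, Pdhb and Pdha1, subunits of the pyruvate dehydrogenase that uses imported pyruvate, fell, and Acly, which splits exported citrate in the cytosol, rose, with 15 of 18 not passing. Pdhb stood at 75.8, 79.1 and 84.3 CPM in control and at 55.7, 49.2 and 53.8 CPM in knockout libraries (-0.59 ± 0.10, adjusted p = 0.00682). Acly stood at 82.3, 72.4 and 79.4 CPM against 120, 96.0 and 115 CPM (0.50 ± 0.12, adjusted p = 0.0225). The groups did not overlap for either gene. The call of Acly was lost without control 2, control 3, knockout 1 or knockout 3 (adjusted p up to 0.0838) and that of Pdha1 (-0.53 ± 0.10) without knockout 2 or 3 (up to 0.0553), while Pdhb kept its call without each library. Counts of Pdha1 were not whole in any library. Ldha, lactate dehydrogenase, the most abundant of this list, stood at 0.36 ± 0.14 (adjusted p = 0.0994).

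Of the 6 shuttle enzymes, Mdh1, the cytosolic malate dehydrogenase of the malate-aspartate shuttle, fell from 608, 984 and 967 CPM in control to 394, 387 and 343 CPM in knockout libraries (-1.19 ± 0.19, adjusted p = 0.00688). Control 1 was again the control nearest to the knockouts. Gpd1 of the alternative glycerol phosphate shuttle rose from 277, 405 and 423 CPM to 593, 687 and 616 CPM (0.78 ± 0.17, adjusted p = 0.0198), a call lost without knockout 2 or 3 (up to 0.0779). Got1, Got2, Mdh2 and Gpd2 did not pass. In the list of the carnitine shuttle, Crot, a peroxisomal acyltransferase, fell from 151, 148 and 143 CPM to 85.9, 87.5 and 90.7 CPM (-0.75 ± 0.09, adjusted p = 0.00288). Acsl1 (-0.57 ± 0.12) fell and Cpt2 (0.41 ± 0.11) rose, but either call was lost without controls 2 or 3 or some of the knockouts (adjusted p up to 0.134), and Acsl5, the most abundant member, stood at 0.25 ± 0.21.

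Around the ornithine carrier, 3 of 13 genes rose (23.1%) and 2 fell (15.4%), where 9.33% of all tested genes were called higher and 9.37% lower. Otc, the matrix enzyme that uses imported ornithine, rose from 150, 163 and 147 CPM to 224, 236 and 251 CPM (0.63 ± 0.10, adjusted p = 0.00675) and kept its call without each library. Oat, which makes ornithine and was the most abundant of the list, fell by 0.51 on the log2 scale (adjusted p = 0.0355), but only without control 1 did it keep its call, and the same held for Nags (-0.46 ± 0.11). Asl (0.54 ± 0.12) rose, with a call lost without control 3, knockout 2 or knockout 3.

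In the list of haem and iron-sulfur assembly 2 of 14 genes rose (14.3%) and none fell, where 9.33% of all tested genes were called higher and 9.37% lower. Alad, a cytosolic enzyme of haem synthesis, rose from 19.8, 19.3 and 16.9 CPM to 38.4, 44.4 and 35.3 CPM (1.07 ± 0.13, adjusted p = 0.00288), and Iscu, the scaffold of iron-sulfur clusters, from 29, 32.4 and 25.8 CPM to 53.6, 56.7 and 47.7 CPM (0.86 ± 0.12). Alas1, the first enzyme of haem synthesis, was placed with the users of glycine and rose too (0.76 ± 0.09, adjusted p = 0.00288). There Gcsh (-0.86 ± 0.16) and Mat2b (-0.40 ± 0.09) fell, the former not without knockout 3 (adjusted p = 0.0565) and the latter not without control 2 or 3 or knockout 2 or 3 (up to 0.0834).

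Of 15 genes of thiamine, coenzyme A, NAD and glutathione supply, 2 fell, Gclm among them, and Slc19a3 rose. These shares, 13.3% lower and 6.67% higher, stand beside 9.37% and 9.33% of all tested genes. Gclm, a subunit of the enzyme that starts glutathione synthesis, stood at 128, 124 and 131 CPM in control and at 91.7, 77.3 and 71.5 CPM in knockout libraries (-0.67 ± 0.12, adjusted p = 0.00810). The thiamine importer Slc19a3 had 7 control and 60 knockout counts, with a call lost without control 3, knockout 2 or knockout 3 (up to 0.0851), and Gsr, the most abundant of the list, stood at 0.49 ± 0.21.

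Import factors of the carriers moved upward in part, with 3 of 10 called higher and none lower, where 9.33% of all tested genes were called higher. By sign, 7 of the 10 log2 differences were positive and 3 negative. Of the negative ones, Agk did not overlap between the groups but did not pass (-0.68 ± 0.24, adjusted p = 0.0804). Timm22 stood at -0.12 ± 0.13 and Timm10b at -0.04 ± 0.17. Timm8b, a small chaperone of the intermembrane space, rose from 29.5, 28.8 and 25.6 CPM to 47.3, 44.6 and 43.9 CPM (0.69 ± 0.11, adjusted p = 0.00550). Timm13 (0.51 ± 0.13) and Timm29 (0.41 ± 0.10), the latter a subunit of the carrier translocase, rose, with a call that remained without control 1 and was lost without each other library (up to 0.119). Of 21 other tested transport proteins of mitochondrial membranes, Abcb8, an ABC transporter of the inner membrane, fell from 26.1, 22.4 and 24.5 CPM to 12.4, 7.72 and 6.72 CPM (-1.45 ± 0.23, adjusted p = 0.00591). Abcb6 (-0.70 ± 0.14) also fell, not without knockout 2 or 3, and Tspo (0.58 ± 0.14) rose, not without control 2 or 3 or knockout 2 or 3 (up to 0.0957), while the porin Vdac2, the most abundant, stood at -0.06 ± 0.14. Among 8 regulators of mitochondrial biogenesis Ppargc1a, a coactivator of genes of oxidative metabolism, fell from 19.3, 35.6 and 32.8 CPM to 11.1, 12.7 and 10.9 CPM (-1.34 ± 0.23, adjusted p = 0.00819), and Esrra, its nuclear receptor partner, stood at -0.46 ± 0.15 (adjusted p = 0.0684).

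**Figure D5:**
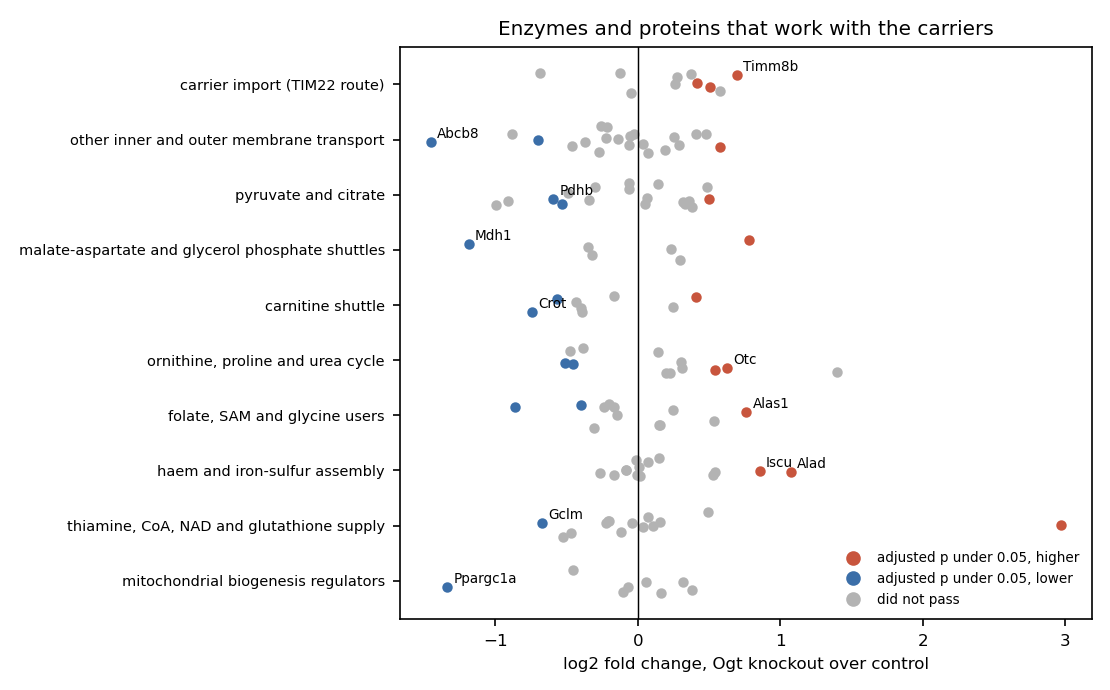
The log2 fold change (x axis, Ogt knockout over control) of tested genes in the 10 lists of enzymes and proteins that work with the carriers, with genes past the threshold in colour. The named genes kept their call whichever single library was left out.

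Promoters were read for the carriers from RefSeq on build GRCm38.p6, the build of the sequence table and not that of the deposited counts. Sequences matched 39 of the 50 genes by symbol, and the 250 bases before each annotated start were searched on both strands for 5 motifs. CACGTG, the E-box bound by MYC and related factors, stood before 7 of the 39 carriers (17.9%), compared with 6.86% of all 27025 genes in the table. Among tested genes it stood before 6 of 34 carriers, and before 9.52% of the 10851 tested genes found there. The median GC content was 58.2% for the carriers' promoters and 52.4% for all promoters. The part of GC content in these shares was not tested. TGATGCAA, TCAAGGTCA, TGACCTTTG and the NRF1 motif stood before none of the 39, against 0.918%, 0.422%, 0.485% and 0.877% of all genes. Motifs this rare would seldom be met among 39 genes, so their absence is not a result. Of the carriers with CACGTG, Slc25a1 rose, Slc25a36 fell, 4 did not pass the test and Slc25a31 was not tested. A match is a description of the letters and was not tied to any binding here. The promoter of Slc25a1, the carrier that rose, is shown in full (chr16:17928220-17928469, minus strand), with the E-box, which starts 239 bases before the gene start, in capitals and the gene start following the last base.
Slc25a1: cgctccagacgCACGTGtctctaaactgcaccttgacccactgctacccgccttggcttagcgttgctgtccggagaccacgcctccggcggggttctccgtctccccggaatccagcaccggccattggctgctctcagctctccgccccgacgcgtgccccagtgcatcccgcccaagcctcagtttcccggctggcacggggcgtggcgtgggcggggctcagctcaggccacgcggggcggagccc

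The 30 bases around the E-box are shown for the other 5 tested carriers that hold it, to let the flanks be compared between a gene that fell (Slc25a36) and those that did not pass. They lie on the minus strand at chr9:97111211-97111240 for Slc25a36, chr8:22398337-22398366 for Slc25a15, chr6:6217281-6217310 for Slc25a13 and chr4:149774268-149774297 for Slc25a33, and on the plus strand at chrX:48623382-48623411 for Slc25a14. The motif starts 187, 77, 125, 8 and 54 bases before an annotated gene start in that order. Slc25a15 and Slc25a14 have several annotated starts. For Slc25a15 the motif lies before the start used here and after another, and for Slc25a14 it also lies within 250 bases before another start.
Slc25a36: cccctgggcgatCACGTGaaagaggcgtgc
Slc25a15: cgccctgccgcaCACGTGccgcggctccgg
Slc25a13: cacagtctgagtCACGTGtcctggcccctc
Slc25a33: gacgtcacggcccggcctccgcCACGTGac
Slc25a14: tccacctccctcCACGTGacgccccaccca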

How the data were processed

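Per the labels' protocols, Trizol served for RNA extraction and the NEBNext Ultra RNA kit for the libraries. The submitters' processing notes name the builds GRCm39 and mm39, and for aligner, counter and annotation the sources used here give no name. Per the file headers, the authors deposited estimated counts and FPKM values for each gene and library. The estimated counts, of which 7.68% to 8.09% per library were not whole within 0.001, were rounded. Names came by Ensembl ID from GENCODE M21 (22219 of 22274 rows), used for names and gene overlaps only, and 5 carriers have another symbol in the deposited table.

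Genes were kept with filterByExpr (minimum count 10, minimum total 15), scaled with TMM factors and tested with edgeR 4.0.16 quasi-likelihood (R 4.3.3, robust dispersion), with Benjamini-Hochberg adjustment across the whole tested table. The SE comes from the F statistic. Library totals set the precision: 3 counts equal 0.159 to 0.207 CPM. The members and lists were chosen with earlier results of these data known. By rule, values in every library are given for carriers past the threshold and the most abundant carrier of each role, and from each list the gene with the smallest adjusted p in each direction, if past the threshold, and the most abundant gene are named. Other genes named with values, and the pairs of related carriers, were chosen after their values were seen. Some genes are not reported here and are left out of the plots, while counts and medians include them. Tests were also run on simulated counts, in which every changed gene changed more than several carriers called here and no library was made to stand apart. That run cannot speak for small differences or for a library such as control 1. Alternatives were other scalings and filters, DESeq2 1.42.0, limma 3.58.1 on log2(FPKM + 0.1) and on log2(FPKM + 1) (at least 1 FPKM in 3 libraries), a replicate block, and each library left out.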

Additional observations from a re-analysis of the deposited data

How the results depend on the processing

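All 8 carriers called by edgeR kept their call and direction under DESeq2, each other scaling and each other count filter. The same held with limma on FPKM and with the replicate block. No carrier changed direction with a call, nor did the listed genes that were called or were the most abundant of their list. Carriers called higher numbered 4 with DESeq2, 3 with DESeq2 size factors, 5 with library size alone, 5 with limma on log2(FPKM + 0.1) or log2(FPKM + 1), and 4 with the replicate block, against 1. The number called lower was 9 with DESeq2, which added Slc25a4 and Slc25a37, 8 with at least 1 CPM in 3 libraries, which added Slc25a37, 8 with the replicate block and 7 under the other settings, against 7. It was 4 to 8 with each library left out, and higher 1 to 2. The carriers' median log2 fold change was 0.0116 with library size alone, 0.0464 with limma on log2(FPKM + 0.1) and 0.0425 on log2(FPKM + 1), where all genes shifted up by 0.14 to 0.16 and the split of all calls went from 1307 higher and 1312 lower to 2045 and 859 with library size alone. The count of all changed genes ran from 1009 to 3304 with each library left out, against 2619. In the labels, same-numbered libraries have only the number in common, with no shared animal, litter or day named. Their deviations correlated at 0.27, 0.25 and 0.08, and those of the other control and knockout pairs at -0.27 to 0.07. Each library correlated best with its own number. The replicate block raised all calls to 3402 and called Slc25a10, Slc25a11 and Slc25a15 higher and Slc25a23 lower. Whether same-numbered libraries shared a batch was not tested, and the main test used no pairing. Over all alternatives, 558 values of single carriers kept their side of the threshold, 28 passed only under the alternative and 4 lost their call. Of the listed genes, only those called and the most abundant of each list were followed in this count. For them these numbers were 383, 6 and 69. The other listed genes, which could only have gained a call, were not counted. The cause of these changes was not tested. With 3 libraries a group, carriers under 1 FPKM were measured from few counts.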
